A study of Homo sapiens with 8 samples.

Results

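The transcripts described here are those of 9 genes of MHC class I antigen presentation, B2M, HLA-B, HLA-C, HLA-E, TAP1, TAP2, PSMB8, PSMB9 and PSMB10, out of 63677 genes counted. They were taken by symbol from the gene annotation that the authors deposited. Of 55 gene identifiers that carry one of these symbols, 10 had counts, and the identifier with the most counts was used for each gene. All 9 were measured in MOLT-4 and DND-41, established human lines of T-cell acute lymphoblastic leukaemia, in 4 groups of 2 libraries each. The groups were MOLT-4 with 100 nM ACBI-1, MOLT-4 with the solvent DMSO, DND-41 with 100 nM ACBI-1 and DND-41 with DMSO, each for 24 h. ACBI-1 belongs to the PROTACs and links the bromodomain proteins SMARCA2, SMARCA4 and PBRM1 of chromatin remodelling complexes to the ubiquitin ligase VHL so that they are degraded. Total RNA was sequenced, and protein or surface class I was not measured.

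Class I molecules show peptides from inside the cell to CD8 T cells and natural killer cells. The proteasome cuts proteins into peptides, and cells of the immune system can build it with the catalytic subunits PSMB8, PSMB9 and PSMB10 in place of PSMB5, PSMB6 and PSMB7. The transporter TAP1/TAP2 carries the peptides into the endoplasmic reticulum, where they are loaded onto a heavy chain such as HLA-B, HLA-C or HLA-E bound to beta-2-microglobulin, the product of B2M. Interferons are known to raise these genes in lymphocytes, and the transactivator NLRC5 is known to raise some of them.

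Total counts per library lay between 21308737 and 22067644, and the 9 genes held 0.1153% to 0.1464% of them. MOLT-4 libraries stood apart by treatment: as a chi-square per degree of freedom, the ACBI-1 pair differed by 2.85 and the DMSO pair by 1.56 times the counting noise, while pairs across the groups differed by 55.7 to 57. In DND-41, libraries of the same number differed by 5.53 (number 2) and 6 (number 1) and all other pairs by 70.2 to 84.1. The authors' deposited table for DND-41 equals, within 0.001 on the log2 scale, the libraries numbered 2 over those numbered 1 in 100% of 27069 genes. The labelled groups give the same value in 0.1515% of them, while the MOLT-4 table follows the labels in 100% of 27777 genes. No label says which is right, so DND-41 is given both ways. All 8 T-lineage markers had counts in each group, though PTCRA had only 1 count in each DND-41 group. Their summed level was 2211 to 2325 CPM in the ACBI-1 libraries and 2341 to 2354 CPM in the DMSO libraries of MOLT-4, and 3139 to 3156 CPM in the libraries labelled ACBI-1 and 3245 to 3394 CPM in those labelled DMSO of DND-41. Single markers moved far more than the sum: edgeR called 2 higher and 5 lower in MOLT-4, with a median log2 fold change of -0.474, among them CD7 (-2.63), CD2 (-1.92) and PTCRA (-1.80) as lower and CD3G (0.64) as higher. In DND-41, CD7 had 214 and 252 CPM in the libraries numbered 2, against 1251 and 1228 CPM in those numbered 1, with the library labelled ACBI-1 before that labelled DMSO. Markers of other cells summed to 2 and 20.9 CPM in MOLT-4 with ACBI-1 and 6.44 to 7.10 CPM with DMSO. The value of 20.9 CPM belonged to ACBI-1 replicate 2, where the fibroblast genes COL1A1 and COL1A2 had 14.4 and 5.13 CPM. In DND-41 this sum was 178 to 690 CPM in the libraries labelled ACBI-1 and 209 to 736 CPM in those labelled DMSO. Nearly all of it was the B-cell marker CD79A. In the same order, CD79A had 177 and 208 CPM in the libraries numbered 2, against 689 and 735 CPM in those numbered 1. Another B-cell marker, MS4A1, was at 0 in all 8 libraries. The part of these markers in the results was not tested. The labels do not say how libraries of a group were made, so p-values refer to the spread among libraries that may be technical replicates. In bulk RNA, fewer cells of a kind and less RNA per cell cannot be told apart.

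The stretches of 250 bases upstream of the transcription start show what the promoters of these genes share, and 8 of the 9 genes had an entry in RefSeq's table (build GRCh38.p14). HLA-E had none. Those of 7 genes are given 5′ to 3′ on the gene's own strand. Capitals mark 3 motifs on either strand: GAAA followed by any 2 bases and a further GAAA, the core of the interferon-stimulated response element, TGACG, the core of the X2 box, and CCAAT, the core of the Y box. Neighbouring matches overlap in B2M and TAP1.
B2M, chr15:44711267-44711516, plus strand: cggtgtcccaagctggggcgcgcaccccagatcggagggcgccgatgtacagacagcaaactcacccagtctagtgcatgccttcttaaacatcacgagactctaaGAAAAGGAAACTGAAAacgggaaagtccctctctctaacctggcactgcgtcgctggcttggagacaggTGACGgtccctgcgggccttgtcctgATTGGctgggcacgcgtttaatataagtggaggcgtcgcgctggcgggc
HLA-B, chr6:31357180-31357429, minus strand: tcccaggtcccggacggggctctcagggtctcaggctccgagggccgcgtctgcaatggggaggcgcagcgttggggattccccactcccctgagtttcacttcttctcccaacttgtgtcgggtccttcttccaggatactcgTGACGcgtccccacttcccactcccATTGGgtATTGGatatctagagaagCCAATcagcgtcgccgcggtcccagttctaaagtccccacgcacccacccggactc
HLA-C, chr6:31272093-31272342, minus strand: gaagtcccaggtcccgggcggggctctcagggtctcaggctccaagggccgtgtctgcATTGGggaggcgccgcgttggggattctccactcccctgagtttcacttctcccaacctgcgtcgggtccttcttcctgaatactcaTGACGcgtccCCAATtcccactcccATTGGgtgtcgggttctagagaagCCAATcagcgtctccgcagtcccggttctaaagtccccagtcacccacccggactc
TAP1, chr6:32853705-32853954, minus strand: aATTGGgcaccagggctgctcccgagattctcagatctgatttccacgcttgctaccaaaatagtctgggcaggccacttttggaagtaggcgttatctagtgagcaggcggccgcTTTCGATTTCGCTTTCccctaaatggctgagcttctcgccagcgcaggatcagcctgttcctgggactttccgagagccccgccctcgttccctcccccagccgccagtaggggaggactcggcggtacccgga
PSMB9, chr6:32853942-32854191, plus strand: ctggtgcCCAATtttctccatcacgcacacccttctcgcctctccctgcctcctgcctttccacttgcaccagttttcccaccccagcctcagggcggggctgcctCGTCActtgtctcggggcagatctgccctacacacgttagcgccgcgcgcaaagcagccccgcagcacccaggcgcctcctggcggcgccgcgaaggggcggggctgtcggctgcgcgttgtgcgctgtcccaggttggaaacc
TAP2, chr6:32838740-32838989, minus strand: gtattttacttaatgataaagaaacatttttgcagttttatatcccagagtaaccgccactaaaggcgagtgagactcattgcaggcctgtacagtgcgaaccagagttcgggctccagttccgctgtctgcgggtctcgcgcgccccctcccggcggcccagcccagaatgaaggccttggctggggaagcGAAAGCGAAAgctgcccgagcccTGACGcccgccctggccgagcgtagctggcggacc
PSMB10, chr16:67936851-67937100, minus strand: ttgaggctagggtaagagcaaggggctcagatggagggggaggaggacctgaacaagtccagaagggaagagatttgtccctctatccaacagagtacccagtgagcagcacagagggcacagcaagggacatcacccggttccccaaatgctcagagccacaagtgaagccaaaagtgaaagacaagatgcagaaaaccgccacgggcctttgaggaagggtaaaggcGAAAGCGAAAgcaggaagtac

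The interferon response motif was found in B2M, TAP1, TAP2 and PSMB10, and in 3.02% of all 35116 promoters of the table. Its matches begin 144 and 138 bases before the start in B2M, 58 in TAP2 and 21 in PSMB10. In TAP1 they lie on the opposite strand and reach up to 128 and 134 bases before the start. Only exact matches were counted, so the other genes, HLA-B and HLA-C included, may hold variants of this motif. TGACG and CCAAT together were found in B2M, HLA-B, HLA-C and PSMB9, and in 7.26% of all promoters. TGACG, with or without CCAAT, was found in 21.2% of promoters, TAP2 and PSMB8 included. CCAAT, with or without TGACG, was found in 32%, TAP1 included. TAP1 and PSMB8 each had a further promoter entry that held none of these motifs. A gene was counted if any of its entries matched, while the shares are of single promoters. The upstream stretches of HLA-B and HLA-C were identical at 226 of 254 aligned positions (89%), and TGACG begins 106 bases before the start of HLA-B and 105 before that of HLA-C. TAP1 and PSMB9 are read in opposite directions from starts 488 bases apart, and their 250-base stretches share 13 bases. The CCAAT match of TAP1 and that of PSMB9 are the same bases within this shared part, read from opposite strands. A motif match describes letters and not binding, which was not measured.

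In MOLT-4 the 3 immunoproteasome subunits moved in different directions with ACBI-1. PSMB10, the subunit that takes the place of PSMB7, had 30.5 and 29.6 CPM (counts scaled to the library total with edgeR's TMM factors, the usual unit of that name) with ACBI-1, against 70.7 and 69.7 CPM with DMSO. Both ACBI-1 libraries lay far below both DMSO libraries. The mean was 30.0 ± 0.604 CPM with ACBI-1 and 70.2 ± 0.683 CPM with DMSO (SD, n = 2 each), a log2 fold change of -1.22 with SE 0.0569 (adjusted p = 2.26e-22 by edgeR's quasi-likelihood test with Benjamini-Hochberg adjustment). PSMB8, which takes the place of PSMB5, had 84.8 and 86.0 CPM with ACBI-1, against 122 and 122 CPM with DMSO. PSMB8 was lower in both ACBI-1 libraries, by a log2 fold change of -0.51 with SE 0.0435 (edgeR, adjusted p = 1.06e-13). PSMB9, which takes the place of PSMB6, went the other way. It had 74.8 and 74.5 CPM with ACBI-1, against 62.7 and 66.1 CPM with DMSO. Its libraries did not overlap, and the log2 fold change was 0.22 with SE 0.0496 (edgeR, adjusted p = 0.000242).

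Both TAP chains, which together form the peptide transporter, had higher mean levels with ACBI-1 in MOLT-4, and TAP2 alone passed the test. TAP2 had 101 and 93.2 CPM with ACBI-1, against 81.2 and 77.3 CPM with DMSO. The 2 groups did not overlap, and the log2 fold change was 0.29 with SE 0.0478 (edgeR, adjusted p = 1.07e-06). TAP1 had 85.4 and 84.5 CPM with ACBI-1, against 77.7 and 82.7 CPM with DMSO. The TAP1 libraries did not overlap either, but the log2 fold change of 0.08 did not pass (edgeR adjusted p = 0.123, SE 0.0472). PSMB9, whose start lies next to that of TAP1, and TAP1 had values of the same sign in MOLT-4, of which that of PSMB9 alone passed. In DND-41 as labelled neither passed (-0.14 for PSMB9 and 0.005 for TAP1). The authors' deposited DND-41 table, number 2 over number 1, gave opposite signs, with PSMB9 called (-0.30) and TAP1 not (0.21). A part of the neighbouring starts in this was not tested.

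Of the class I chains, HLA-E and B2M fell most in MOLT-4. HLA-E, a heavy chain that mainly shows leader peptides of other class I molecules to NKG2A receptors, had 82.2 and 83.1 CPM with ACBI-1, against 141 and 142 CPM with DMSO. The mean was 82.7 ± 0.585 CPM with ACBI-1 and 141 ± 1.16 CPM with DMSO (SD, n = 2 each). The log2 fold change was -0.77 with SE 0.0428 (edgeR, adjusted p = 9.49e-20). B2M, the light chain that all class I heavy chains share, had 425 and 440.1 CPM with ACBI-1, against 559 and 577 CPM with DMSO. Both ACBI-1 libraries were below both DMSO libraries, by a log2 fold change of -0.39 with SE 0.0351 (edgeR, adjusted p = 5.72e-13). Of the classical heavy chains, which present peptides to CD8 T cells, HLA-C fell by less and HLA-B was not called. HLA-C had 169 and 169.9 CPM with ACBI-1, against 189 and 192 CPM with DMSO, a log2 fold change of -0.17 with SE 0.0379 (edgeR, adjusted p = 0.000214). HLA-B had 108 and 109 CPM with ACBI-1, against 108 and 108 CPM with DMSO, and its libraries overlapped. The log2 fold change of HLA-B was 0.01 with SE 0.0428 (edgeR, adjusted p = 0.899).

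**Figure D1:**
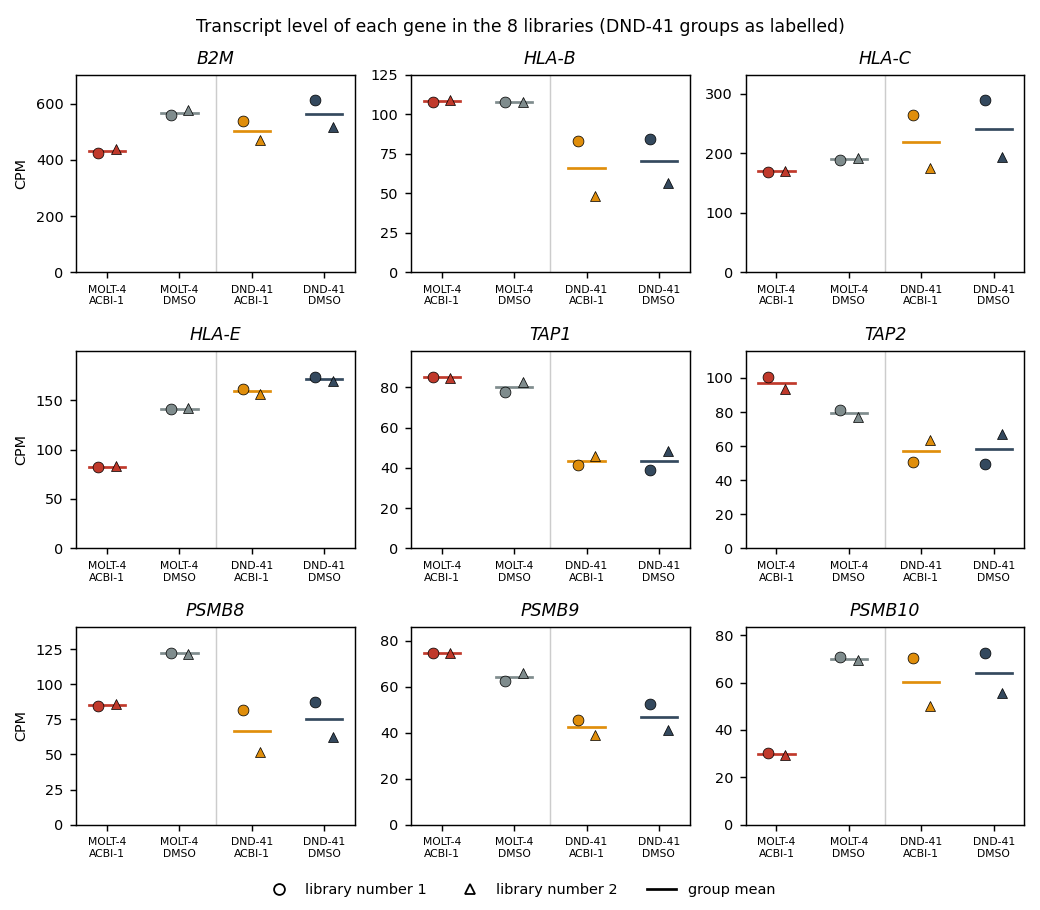
Level of each of the 9 transcripts in CPM (linear axes from 0) in the 8 libraries, by line and labelled treatment. Points are libraries (circle, number 1; triangle, number 2) and bars are group means. In MOLT-4 the ACBI-1 and DMSO libraries stand apart for 8 of 9 genes, while in DND-41 the symbols separate by number for 8 of 9.

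In all, 2 of the 9 genes rose and 5 fell with ACBI-1 in MOLT-4, where edgeR called 58.4% of the 14618 genes tested (28.2% higher and 30.2% lower). The libraries of 8 of the 9 did not overlap between the groups, as for 77.7% of all genes. Both shares are high in all genes, so the number of calls does not set these 9 apart. The median log2 fold change was -0.167 for the 9 genes and 0.009 for all genes tested. PSMB10 lay lower than all but 3.6% of the genes tested and HLA-E lower than all but 6.9%. For MOLT-4, the authors' deposited table called the same directions, 2 higher (14.7% of its genes) and 5 lower (20.3%), with 35.1% of its genes called in all. Without ACBI-1 replicate 2, the library with the collagen transcripts, 2 rose and 5 fell too, with PSMB10 at -1.20 and HLA-E at -0.78 on the log2 scale.

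Small changes depend on the scaling. The median log2 fold change of all MOLT-4 genes was 0.128 with scaling by total counts and 0.009 with TMM. With total counts HLA-B (0.13, edgeR adjusted p = 0.01) and TAP1 (0.20, 0.000203) passed as higher and HLA-C did not pass (-0.05, 0.286). When the spread was estimated over the 8 libraries of both lines, HLA-E (edgeR adjusted p = 0.00747) and PSMB10 (0.0284) passed and the other 7 did not, while 3.39% of all genes passed. The fold changes hardly moved (B2M -0.39, PSMB8 -0.51), and the SE was larger, at 0.117 for B2M, against 0.0351 in the fit of MOLT-4 alone, and 0.238 for PSMB8, against 0.0435.

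Some of these genes share sequence or position with others, and the strand setting of the counting is not given in the sources used here. PSMB10 overlaps the gene AC040162.1 on the same strand, and 31.7% of the 100-base windows of its transcript also occur in that gene. AC040162.1 had 168 counts with ACBI-1 and 240 with DMSO in MOLT-4, which is 13% and 8.48% of the counts of PSMB10. PSMB8-AS1 overlaps PSMB8 and TAP1 on the opposite strand and PSMB9 on the same strand. It had 449 counts with ACBI-1 and 283 with DMSO in MOLT-4, which is 12.2% and 5.76% of the counts of PSMB8 and 13.9% and 10.9% of those of PSMB9. PSMB8 and PSMB9 themselves overlap on opposite strands by 139 exon bases. TAP2 shares 79.8% of its windows with the readthrough gene AL669918.1, which had 5 counts in all 8 libraries. In the reference, HLA-B shared no 100-base window with another gene, HLA-C shared 4 windows (0.278%) and HLA-E shared 15 (0.6%). The values of PSMB8, PSMB9, PSMB10, TAP1, TAP2 and the HLA genes are therefore uncertain to the extent that reads were split or lost, which was not tested.

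Set against the constitutive subunits, PSMB10 and PSMB8 were lower and PSMB9 was higher in both ACBI-1 libraries of MOLT-4. Of the constitutive subunits PSMB7 alone was called: the log2 fold change was 0.09 for PSMB5 (SE 0.0516, edgeR adjusted p = 0.156), -0.08 for PSMB6 (SE 0.0440, adjusted p = 0.117) and -0.12 for PSMB7 (SE 0.0403, adjusted p = 0.00799). Per kilobase of transcript, the ratio of PSMB10 to PSMB7 was 0.157 and 0.145 with ACBI-1, against 0.336 and 0.311 with DMSO. The ratio of PSMB8 to PSMB5 was 1.54 and 1.47 with ACBI-1, against 2.27 and 2.29 with DMSO. Neither ratio overlapped between the groups. The ratio of PSMB9 to PSMB6 was 0.86 and 0.846 with ACBI-1, against 0.681 and 0.708 with DMSO, and so was higher in each ACBI-1 library. In DND-41 as labelled, these 3 ratios averaged 0.406, 1.53 and 0.368 in the libraries labelled ACBI-1, against 0.388, 1.59 and 0.358 in those labelled DMSO. By library, PSMB10 to PSMB7 was 0.4145 and 0.3964 in those labelled ACBI-1, against 0.3833 and 0.3926 in those labelled DMSO. This ratio did not overlap and was higher with the ACBI-1 label, opposite to MOLT-4. The ratios of PSMB8 to PSMB5 and of PSMB9 to PSMB6 overlapped in DND-41. No test was run on ratios, and the share of ratios of other genes that do not overlap was not counted.

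**Figure D2:**
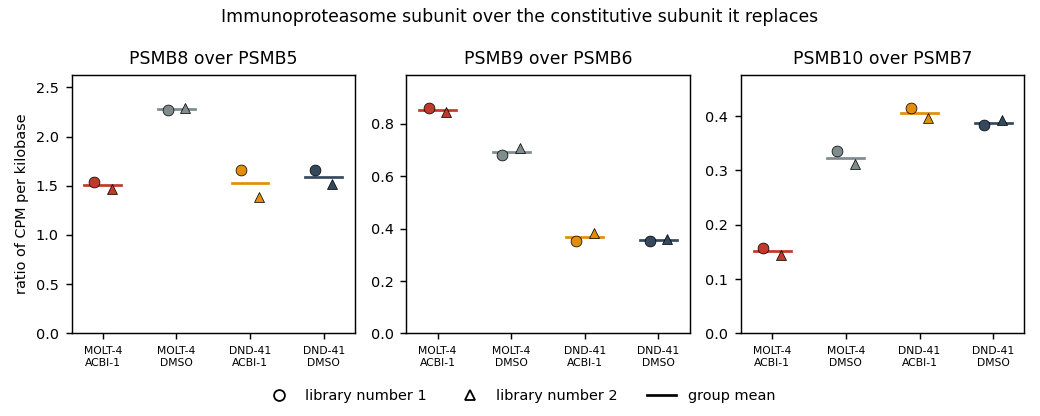
Ratio of each immunoproteasome subunit to the constitutive subunit it replaces, from CPM per kilobase (linear axes from 0), in the 8 libraries by line and labelled treatment. Points are libraries and bars are group means. In MOLT-4 the ratios of PSMB8 to PSMB5 and of PSMB10 to PSMB7 lie lower with ACBI-1 and that of PSMB9 to PSMB6 lies higher.

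In MOLT-4, ratios among the class I chains also stood apart between the groups, as did 77.7% of all genes tested taken singly. The share for ratios of other genes was not counted. HLA-E per HLA-C, per kilobase, was 0.287 and 0.289 with ACBI-1, against 0.439 and 0.437 with DMSO in MOLT-4. The summed heavy chains HLA-B, HLA-C and HLA-E per B2M were 0.847 and 0.825 with ACBI-1, against 0.754 and 0.737 with DMSO, so heavy chain transcripts were higher relative to B2M in both ACBI-1 libraries. The ratio of TAP1 to TAP2 was 0.715 and 0.765 with ACBI-1, against 0.808 and 0.904 with DMSO. In DND-41 as labelled, each of these ratios overlapped between the groups. HLA-E per HLA-C was 0.362 and 0.528 in the libraries labelled ACBI-1, against 0.355 and 0.517 in those labelled DMSO. For the summed heavy chains per B2M these values were 0.911 and 0.744, against 0.862 and 0.753.

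The genes around these 9 in the pathway were taken from lists chosen with earlier results of these data known. Of 10 genes of peptide loading and trimming, 3 rose and 5 fell in MOLT-4 and 2 were not called, with a median log2 fold change of -0.092. Beside these counts, edgeR called 58.4% of all genes tested in MOLT-4 (28.2% higher and 30.2% lower), with a median of 0.009. HSPA5, the chaperone BiP of the endoplasmic reticulum, had 184 and 176 CPM with ACBI-1, against 601 and 575 CPM with DMSO (log2 fold change -1.71, edgeR adjusted p = 1.84e-34). CANX, the chaperone calnexin that folds new heavy chains, had 472 and 467 CPM with ACBI-1, against 1005 and 989.6 CPM with DMSO (-1.08, adjusted p = 1.98e-28). The other chaperones and enzymes moved less. PDIA3, the disulfide isomerase of the loading complex, fell (-0.68), as did ERAP1, which trims peptides (-0.26), while TAPBP, the tapasin that bridges TAP and heavy chain, rose (0.16, edgeR adjusted p = 0.000193).

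Of 19 constitutive core and activator genes of the proteasome, 0 rose, 13 fell and 6 were not called in MOLT-4, with a median of -0.176. Of all genes tested there, 28.2% rose and 30.2% fell, with a median of 0.009. PSMA5, an alpha ring subunit, had 82.4 and 90.1 CPM with ACBI-1, against 148 and 152 CPM with DMSO (log2 fold change -0.79, edgeR adjusted p = 1.31e-19). The activator subunits PSME3 (-0.60) and PSME1 (-0.54) and the alpha subunit PSMA3 (-0.42) fell too. Of 9 other class I and class I-like genes 6 could be tested, of which 2 rose and 3 fell. MICA, a stress ligand of the receptor NKG2D, had 1.44 and 1.48 CPM with ACBI-1, against 5.05 and 3.73 CPM with DMSO (-1.58), and its relative MICB fell (-0.63). HFE, which binds the transferrin receptor, rose (2.79), and so did CD1D, which shows lipids to NKT cells (0.69).

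Among 17 transcription factors of class I genes 8 rose and 3 fell in MOLT-4 and 6 were not called, with a median of 0.152. Over all genes tested, edgeR called 58.4% (28.2% higher and 30.2% lower), with a median of 0.009. STAT2, which carries type I interferon signals to the nucleus, had 71.4 and 68.1 CPM with ACBI-1, against 39.9 and 41.0 CPM with DMSO (log2 fold change 0.79, edgeR adjusted p = 1.75e-16). RFX5 (0.56), which binds the X box, and NFYC (0.42), which binds the Y box, rose as well. NLRC5, the class I transactivator, had 22.7 and 22.1 CPM with ACBI-1, against 26.9 and 26.6 CPM with DMSO, a log2 fold change of -0.25 with SE 0.0720 (edgeR, adjusted p = 0.00264). IRF1, which binds interferon response elements, had 149.6 and 136 CPM with ACBI-1, against 129.9 and 128 CPM with DMSO, a log2 fold change of 0.15 with SE 0.0431 (edgeR, adjusted p = 0.00236). For MOLT-4 the authors' deposited table called neither (adjusted p = 0.0856 for NLRC5 and 0.0699 for IRF1). Of 11 class II genes 2 could be tested, and both rose at low levels, HLA-DMA (1.24) and HLA-DOB (0.83). The authors' deposited table for MOLT-4 called neither of these (adjusted p = 0.102 for HLA-DMA and 0.138 for HLA-DOB). HLA-DMA had 2.14 and 1.39 CPM with ACBI-1, against 0.396 and 1.09 CPM with DMSO, and HLA-DRA had no counts in any library.

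**Figure D3:**
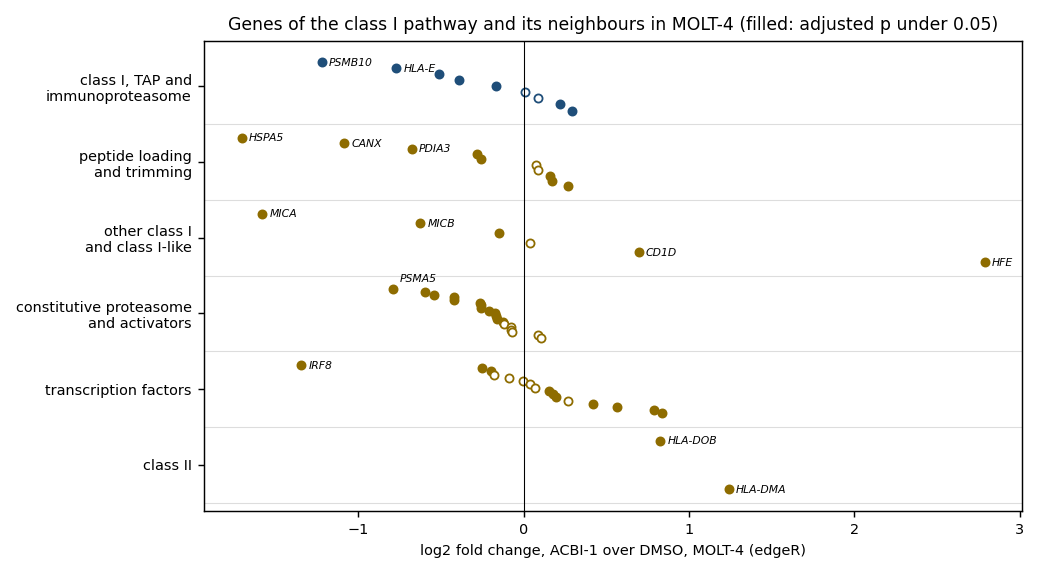
Log2 fold change of ACBI-1 over DMSO in MOLT-4 (edgeR) for the 9 class I, TAP and immunoproteasome genes and for the tested genes of 5 surrounding lists, without 1 transcription factor that is not reported here. Each point is a gene, filled where the adjusted p is under 0.05, and the vertical spread within a list only separates points. PSMB10 and HLA-E are lowest of the 9 genes, and HSPA5 (-1.71) and CANX (-1.08) are lowest among peptide loading genes.

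In DND-41 as labelled, none of the 9 genes was called between ACBI-1 and DMSO, and the libraries of 8 of them overlapped. EdgeR called 0 of the 9 and 0 of 14602 genes in all (0%), DESeq2 called 0 of both, and at an unadjusted p under 0.05 edgeR gave 0 of the 9 and 37 of all. HLA-E had 162 and 157 CPM in the libraries labelled ACBI-1, against 174 and 169.8 CPM in those labelled DMSO. It was the 1 gene of the 9 whose libraries did not overlap (16.1% of all genes), at a log2 fold change of -0.11 with SE 0.119 (edgeR, adjusted p = 1). B2M had 538 and 470 CPM in the libraries labelled ACBI-1, against 612 and 516 CPM in those labelled DMSO, and its groups overlapped. The log2 fold change of B2M was -0.16 with SE 0.162 (edgeR, adjusted p = 1), and it ran from -0.29 without DMSO replicate 2 to -0.02 without DMSO replicate 1. Between libraries of the same number, the one labelled ACBI-1 was below the one labelled DMSO in both numbers for 7 of the 9 genes and above it in both for 0, with TAP1 and TAP2 mixed. Of all genes tested, 33.2% were lower in both numbers and 28.7% higher in both. With a replicate block for the number, edgeR called B2M, HLA-C and PSMB8 lower, 3 of the 9, and 9.24% of all genes. No label says that libraries of a number belong together, and there are only 2 pairs. PSMB10 had 70.3 and 50.3 CPM in the libraries labelled ACBI-1, against 72.6 and 55.4 CPM in those labelled DMSO. For the 9 genes the SE of the log2 fold change ran from 0.119 to 0.347, against 0.0351 to 0.0569 in MOLT-4, and the median log2 fold change was -0.106, against -0.002 for all genes. None of the genes in the surrounding lists passed in DND-41 as labelled.

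The authors' deposited table for DND-41, which sets the libraries numbered 2 against those numbered 1, called 1 of the 9 genes higher and 6 lower, where it called 36.8% of genes, 15.2% higher and 21.6% lower. In each pair of values here the library labelled ACBI-1 stands before the one labelled DMSO. HLA-B had 48.3 and 56.2 CPM in the libraries numbered 2, against 83.2 and 84.3 CPM in those numbered 1. HLA-C had 175 and 194 CPM in the libraries numbered 2, against 264 and 289 CPM in those numbered 1. Both were lower in each library numbered 2, with deposited log2 fold changes of -0.69 for HLA-B (SE 0.108, authors' adjusted p = 1.76e-09) and -0.60 for HLA-C (SE 0.0887, adjusted p = 2.14e-10). PSMB8 had 51.9 and 62.6 CPM in the libraries numbered 2, against 81.8 and 87.6 CPM in those numbered 1, with a deposited log2 fold change of -0.58. PSMB9 had 39.2 and 41.2 CPM in the libraries numbered 2, against 45.5 and 52.5 CPM in those numbered 1. The authors' deposited table also called PSMB10 (-0.45), PSMB9 (-0.30) and B2M (-0.24) lower. TAP2 had 63.5 and 67.2 CPM in the libraries numbered 2, against 50.6 and 49.4 CPM in those numbered 1, and was called higher in the authors' deposited table (0.37, adjusted p = 0.00161). TAP1, at 45.8 and 48.2 CPM in the libraries numbered 2 and 41.3 and 39.1 CPM in those numbered 1 (0.21, adjusted p = 0.141), and HLA-E (-0.05, adjusted p = 0.693) were not called there. The libraries numbered 2 and 1 did not overlap for 8 of the 9 genes, as for 75.5% of all genes, and HLA-E was the exception.

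Side by side, both of the authors' deposited tables called TAP2 higher and B2M, HLA-C, PSMB8 and PSMB10 lower. The tables do not make the same comparison. That of MOLT-4 sets ACBI-1 over DMSO, while that of DND-41 splits the libraries by their number and not by labelled treatment. A shared response to ACBI-1 was therefore not tested. The share of all genes called in the same direction in both tables was not counted. The authors' deposited table of MOLT-4 called PSMB9 higher (0.20, adjusted p = 0.0262), and their deposited table of DND-41 called it lower (-0.30, adjusted p = 0.0351). HLA-E was called lower in the deposited table for MOLT-4 alone and HLA-B in that for DND-41 alone. A difference between both deposited tables was not tested.

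**Figure D4:**
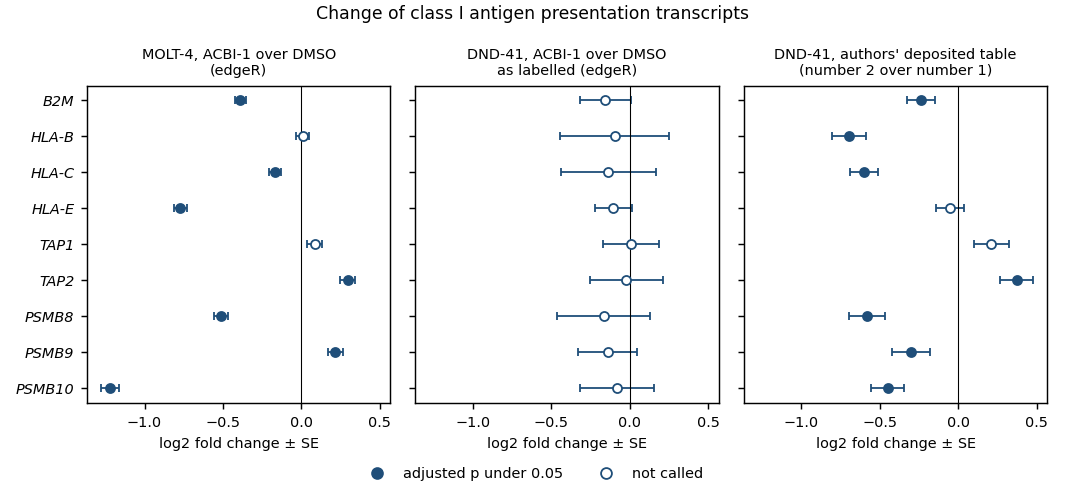
Log2 fold change with its standard error (bars) for the 9 genes: MOLT-4 with ACBI-1 over DMSO, DND-41 with ACBI-1 over DMSO as labelled, and DND-41 in the authors' deposited table, which is number 2 over number 1. Filled points have an adjusted p under 0.05. PSMB10 and HLA-E are lowest in MOLT-4, HLA-B and HLA-C in the authors' DND-41 table, and no gene is called in DND-41 as labelled.

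Whether the response to ACBI-1 differed between the lines was tested as an interaction in all 8 libraries with the DND-41 labels as given. EdgeR called 0 of the 9 genes and 63 of 16047 genes (0.393%, with 0.125% higher and 0.268% lower), and at an unadjusted p under 0.05 it gave 2 of the 9 and 1611 of all. The 2 were HLA-E, with a difference of -0.66 between the log2 fold changes of MOLT-4 and DND-41 (SE 0.105, edgeR adjusted p = 0.0814), and PSMB10, with -1.14 (SE 0.269, adjusted p = 0.207). DESeq2 called these 2 (adjusted p = 0.000395 for HLA-E and 0.0265 for PSMB10) and 367 of all genes. With a replicate block edgeR called 6 of the 9 and 36.5% of all genes. Over all alternatives the edgeR and DESeq2 adjusted p ran from 6.2e-16 to 0.532 for HLA-E and from 1.99e-24 to 0.758 for PSMB10. The interaction as labelled says nothing of the deposited DND-41 direction, which was not tested here against MOLT-4.

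Between the libraries labelled DMSO, the 2 lines differed most in TAP1. It had 77.7 and 82.7 CPM in MOLT-4, against 39.1 and 48.2 CPM in the DND-41 libraries so labelled. The log2 fold change of TAP1 was 0.88 with SE 0.124 (edgeR, adjusted p = 0.00233). The deposited DND-41 table does not follow the labels, so whether both DND-41 libraries were without ACBI-1 is not settled here. PSMB9 had 62.7 and 66.1 CPM in MOLT-4, against 52.5 and 41.2 CPM in DND-41, and was higher in MOLT-4 (0.46, SE 0.139, adjusted p = 0.0406 by edgeR). HLA-E had 141 and 142 CPM in MOLT-4, against 174 and 169.8 CPM in DND-41, and was lower in MOLT-4 (-0.28, SE 0.0739, adjusted p = 0.0247 by edgeR). These 3 of 9 were called where edgeR called 39.5% of genes, 20.1% higher and 19.4% lower, and 7 of 9 had libraries that did not overlap (75.2% of genes). PSMB8 (0.70, edgeR adjusted p = 0.0575), HLA-B (0.62, 0.125), TAP2 (0.44, 0.0875), HLA-C (-0.34, 0.296), PSMB10 (0.13, 0.601) and B2M (0.01, 0.953) did not pass. TAP1 was called without each library in turn (edgeR adjusted p from 0.00219 to 0.0244). HLA-E was not called without any 1 of the 4 libraries (0.0687 to 0.158), and PSMB9 was called only without DND-41 DMSO replicate 1 (0.65, 0.0147, against 0.134 to 0.187 without 1 of the others), which leaves MOLT-4 against a single DND-41 library. PSMB8 passed without that library (0.97, 0.0335), and TAP2 passed without DND-41 DMSO replicate 2 (0.68, 0.0263) and was at 0.24 without DND-41 DMSO replicate 1. HLA-B was at 0.95 without DND-41 DMSO replicate 1 and 0.35 without DND-41 DMSO replicate 2, and HLA-C at -0.02 and -0.60 without the same libraries. The lines were counted in separate tables, so line and table cannot be told apart, and the MOLT-4 columns carry the word "redo", which the labels do not explain.

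Levels of different genes were compared per kilobase of the principal transcript. In MOLT-4 with DMSO, B2M was first with 333 CPM per kilobase, followed by HLA-C (124), PSMB8 (109 CPM per kilobase), PSMB9 (82.3) and HLA-B (69.7). PSMB10 (57.6 CPM per kilobase), HLA-E (54.4), TAP2 (31.7) and TAP1 (27.1) came after. The order in MOLT-4 with ACBI-1 was B2M (254 CPM per kilobase), HLA-C (110.4), PSMB9 (95.4), PSMB8 (76.0), HLA-B (69.9), TAP2 (38.9), HLA-E (31.8), TAP1 (28.7) and PSMB10 (24.7). PSMB10 was last in this order. In the DND-41 libraries labelled DMSO, B2M (331 CPM per kilobase) and HLA-C (157) were also first and TAP2 (23.3) and TAP1 (14.8) last. PSMB8 (66.8), HLA-E (66.1), PSMB9 (59.9), PSMB10 (52.6) and HLA-B (45.4 CPM per kilobase) lay between them, and each of these 5 overlapped its neighbour in this order. In MOLT-4 no neighbours in the order overlapped. The length of all exons of a gene was also used in place of 1 transcript, a choice made after the data were examined. HLA-E then came next after B2M and HLA-C in MOLT-4 with DMSO (47.5 CPM per kilobase). In the DND-41 libraries labelled DMSO, HLA-C (96.3) then lay above B2M (92.8). In MOLT-4 with ACBI-1, PSMB10 (16.2 CPM per kilobase) then lay above TAP2 (15.2), which was last.

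Over the 4 group means, the protein-coding genes with a pattern nearest to that of B2M, of 9771 with a mean of at least 5 CPM, were AIMP1, TUSC2, SEP15, POMP and MACROD1. Their root mean square distances on the log2 scale ran from 0.0051 to 0.0227. Those nearest to HLA-E were SLC38A5, CALHM2, ARRDC2, ELAC1 and BZW2, at 0.0035 to 0.0522. POMP, which assists proteasome assembly, is itself on the list of constitutive proteasome genes and had a log2 fold change of -0.42 in MOLT-4. The likeness rests on 4 points, and the DND-41 means follow the labels.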

How the data were processed

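Total RNA was sequenced in 8 libraries with strand-specific paired reads of 100 bases, per the labels' protocols. The submitters' processing notes name the build hg19, the aligner STAR 2.5.2a, the counter featureCounts and DESeq2 1.12.4 for testing. The counting strand and the treatment of reads with several matches are not given in the sources used here, nor are the HLA alleles of the lines.

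The authors deposited raw counts per gene, 1 table of 63677 genes per line, and 1 comparison table per line. The comparison tables hold a mean signal per gene (counts divided by size factors), log2 fold changes with standard errors, a p-value with its adjusted form, and a Wald score, all as deposited. From the counts, edgeR 4.0.16 in R 4.3.3 was run on all genes (quasi-likelihood F-test, 2-sided, TMM, filterByExpr, Benjamini-Hochberg adjustment, threshold 0.05). Each line was fitted on its own, and the interaction and the comparison of DMSO groups used 8 libraries. All 9 genes passed the low-count filter in each fit. CPM were scaled with TMM factors of the 8 libraries. DESeq2 1.42.0 was an alternative. The steps were tested on simulated counts. Transcript lengths and overlaps came from GENCODE release 29 and promoters from RefSeq.

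The genes, lists and tests were chosen with earlier results of these data known. All 9 genes were named. From each list up to 4 tested genes with the smallest adjusted p in MOLT-4 were named, and PSMB5, PSMB6, PSMB7, TAPBP, NLRC5 and IRF1 always. The values of 1 transcription factor that this rule names are not reported here. HLA-DRA, COL1A1, COL1A2, CD79A, MS4A1 and the overlapping genes were named after their values were seen. Genes near B2M and HLA-E in pattern were ranked by root mean square distance of centred log2 group means (prior 0.5 CPM). Alternatives were other scalings and filters, DESeq2, each library left out, a replicate block and a shared spread.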

Additional observations from a re-analysis of the deposited data

How the results depend on the processing

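In MOLT-4, 88 of 99 values of the 9 genes over 11 alternatives kept their direction and their side of the threshold. The count of called genes among the 9 was 7 without each library in turn (6888 to 7123 of all genes), and DESeq2 called 5682 of all genes. With the spread shared over 8 libraries 2 of the 9 and 544 of all genes passed. HLA-B turned to -0.0145 without the low-count filter and -0.00533 with DESeq2, and ranged from -0.00295 to 0.0155 with libraries left out. The share of calls that were higher was 48.3% with TMM and 65.7% with scaling by total counts.

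In DND-41 as labelled, 79 of 99 values kept direction and side, and with libraries left out 0 of the 9 and 0 of all genes passed. TAP1 was -0.00225 with DESeq2 size factors in edgeR, -0.0022 with the shared spread, -0.0109 without the filter and -0.00963 with DESeq2. With libraries left out, the log2 fold changes ran from -0.29 to -0.0236 for B2M, -0.52 to 0.23 for HLA-B, -0.45 to 0.19 for HLA-C, -0.13 to 0.15 for TAP1, -0.22 to 0.20 for TAP2, -0.52 to 0.12 for PSMB8, -0.32 to 0.0482 for PSMB9 and -0.33 to 0.13 for PSMB10.

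For the interaction, 111 of 126 values kept direction and side. DESeq2 called 2 of the 9 and 367 of all genes, and with libraries left out edgeR called 0 of the 9 and 0 to 49 of all. HLA-C turned to 0.0781 with total counts. With libraries left out the values ran from -0.37 to -0.11 for B2M, 0.0823 to 0.52 for TAP2, 0.17 to 0.52 for PSMB9, -0.24 to 0.55 for HLA-B, -0.36 to 0.30 for HLA-C, -0.64 to 0.0227 for PSMB8 and -0.0768 to 0.22 for TAP1.

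Between the lines, 71 of 99 values kept direction and side. The count among the 9 was 1 without the filter (18.4% of all genes called), 7 with both treatments averaged (4 against 4 libraries, 53.4% of all genes) and 1 to 3 with libraries left out (3292 to 6735 of all genes). With total counts the median of all genes was -0.192, B2M was -0.16 and PSMB10 -0.0386. With both treatments averaged B2M was -0.11 and PSMB10 -0.44 (edgeR adjusted p = 0.0324). With libraries left out B2M ran from -0.11 to 0.15, PSMB10 from -0.0485 to 0.35, HLA-B from 0.35 to 0.95, HLA-C from -0.60 to -0.0166 and TAP2 from 0.24 to 0.68.

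Libraries share only a replicate number, with a correlation of same-numbered deviations of 0.751 in DND-41 and 0.00796 in MOLT-4, from 2 pairs each. With a replicate block, edgeR called 7 of the 9 and 8581 of all genes in MOLT-4, 3 of the 9 and 1349 of all genes (9.24%) in DND-41, 6 and 5860 (36.5%) for the interaction, and 8 and 11865 (73.9%) between the lines. The 3 in DND-41 were B2M (-0.15, edgeR adjusted p = 0.0119), HLA-C (-0.13, 0.0283) and PSMB8 (-0.17, 0.0204), and the 6 were B2M, HLA-E, TAP2, PSMB8, PSMB9 and PSMB10. Where a library was left out, the lone library of that group was assumed to vary like the other groups. The causes of these changes were not tested. Without the block, differences of this size in DND-41 lay within the spread of the labelled groups.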

Other observations

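Among genes that no comparison above turns on, CALR, the chaperone calreticulin of the loading complex, had 1638 and 1589 CPM with ACBI-1, against 1440 and 1436 CPM with DMSO in MOLT-4 (log2 fold change 0.17, edgeR adjusted p = 5.4e-05). CALR thus went up while calnexin, its relative in the same compartment, went down. IRF8, a factor of interferon responses, had 1.58 and 0.924 CPM with ACBI-1, against 3.57 and 2.83 CPM with DMSO in MOLT-4 (-1.35, edgeR adjusted p = 1.08e-05), and no counts in DND-41. ERAP2, a peptide-trimming enzyme, had 229 and 227 CPM in MOLT-4 with DMSO, against 27.3 and 39.9 CPM in the DND-41 libraries labelled DMSO. The log2 fold change of ERAP2 was 2.76 (edgeR adjusted p = 0.000201). For DND-41, the authors' deposited table gives IRF1 (0.58) as higher and NLRC5 (-0.85) as lower in the libraries numbered 2. These genes were picked after their values were seen.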
